A study of Mus musculus with 160 samples.

Results

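The cerebellum of 10 R6/2 mice was compared with the cortex of 10 R6/2 mice, 20 libraries out of the 160 of the series, all from vehicle-treated animals. Members were chosen by the labels alone (genotype, treatment and tissue), with no measured value. R6/2 mice, genotype Tg(HDexon1)62Gpb on a C57BL/6J background, carry the first exon of human HTT, with a lengthened CAG tract, under the promoter of that gene. They serve to model Huntington's disease. That transgene is an added fragment, expressed beside both copies of the mouse gene. Vehicle was a buffered cyclodextrin solution given once by mouth, and tissues of the left side of the brain were frozen 6 h later at 12 weeks of age. Each group held 5 females and 5 males. The reference was the same pair of regions in 10 wild-type (WT) C57BL/6J mice given the same vehicle, 20 further libraries. A repeat used 40 libraries of R6/2 and WT mice that had been given CHDI-00340246 at 10 mg/kg, a compound that blocks kynurenine 3-monooxygenase, in place of vehicle. The question was which differences between cerebellum and cortex remain in R6/2.

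The cerebellum is built around a few cell types. Granule cells, the most numerous, carry a GABA-A receptor with the alpha 6 subunit. Purkinje cells are the only output neurons of the cerebellar cortex and read granule cell input through glutamate receptors and calcium stores. Bergmann glia, basket and stellate cells, Golgi cells and unipolar brush cells surround them. The cortex holds layered glutamatergic projection neurons and GABAergic interneurons that migrated in from the ventral forebrain. Each region keeps into adulthood the transcription factors that patterned it, such as the engrailed, Zic and Irx families in the hindbrain and the Emx pair and Tbr1 in the forebrain.

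Depth, in M estimated counts per library, was 31.6 to 43.9 in R6/2 cerebellum, 28.5 to 39.6 in R6/2 cortex, 30.5 to 38.9 in WT cerebellum and 32.5 to 44.2 in WT cortex. Of 39179 genes listed, 17760 had enough counts to be tested. Levels below are CPM, counts scaled to a common library total after TMM, and differences are log2 fold changes of cerebellum over cortex, positive where the cerebellum was higher, with the SE. Both tissue labels held against their defining markers. En1, En2, Gabra6, Pcp2 and Cbln3 passed as higher in R6/2 cerebellum, and Emx1, Tbr1 and Neurod6 as higher in R6/2 cortex, each in 10 of 10 animals. Choroid plexus, which lies against the cerebellum, varied most between libraries. The summed level of 12 choroid plexus genes was 31.3 to 2918 CPM in R6/2 cerebellum and 17 to 256.6 CPM in R6/2 cortex, and 24.8 to 2528 CPM and 17.3 to 44.9 CPM in WT. Library numbers, taken in order, were divided into 4 runs of 40 that are spread unevenly over the groups. The labels do not name these runs as sequencing batches. With the run as a covariate, 6565 genes were higher in R6/2 cerebellum and 6675 in R6/2 cortex, against 6694 and 6790 without it. The 2 libraries that the specimen numbers assign to 1 animal deviated together from their group means, with correlations over genes from 0.27 to 0.50 in R6/2 and 0.17 to 0.42 in WT, so differences were also taken within each animal.

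Cerebellum and cortex remained far apart in R6/2. In edgeR's quasi-likelihood test 6694 genes were higher in R6/2 cerebellum (37.7% of the genes tested) and 6790 higher in R6/2 cortex (38.2%), at an adjusted p under 0.05. Of these, 539 and 1109 differed at least 4-fold. The WT animals gave 7228 and 6793 genes, of which 695 and 1289 differed at least 4-fold. Of the 7228 genes higher in WT cerebellum, 5913 (81.8%) were also called higher in R6/2 cerebellum, 1107 were not called and 2.9% were called higher in R6/2 cortex. Of the 6793 genes higher in WT cortex, 5771 (85%) kept that direction, 876 were not called and 2.1% turned over. A gene not called in R6/2 is not thereby shown to differ between the genotypes, so the difference of the differences was tested for each gene.

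That test called 4046 genes narrowed in R6/2 (22.8% of the genes tested), meaning that the regions were closer together than in WT. It called 1693 widened (9.53%) and 354 reversed (1.99%), the last being genes called in both genotypes with opposite directions. Among the 1107 and 876 genes whose region call was lost, 537 and 417 were called narrowed. Across the 17760 genes the R6/2 and WT region differences had a Pearson correlation of 0.93. This describes genes within 4 groups of libraries, and genes are not independent replicates.

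**Figure D1:**
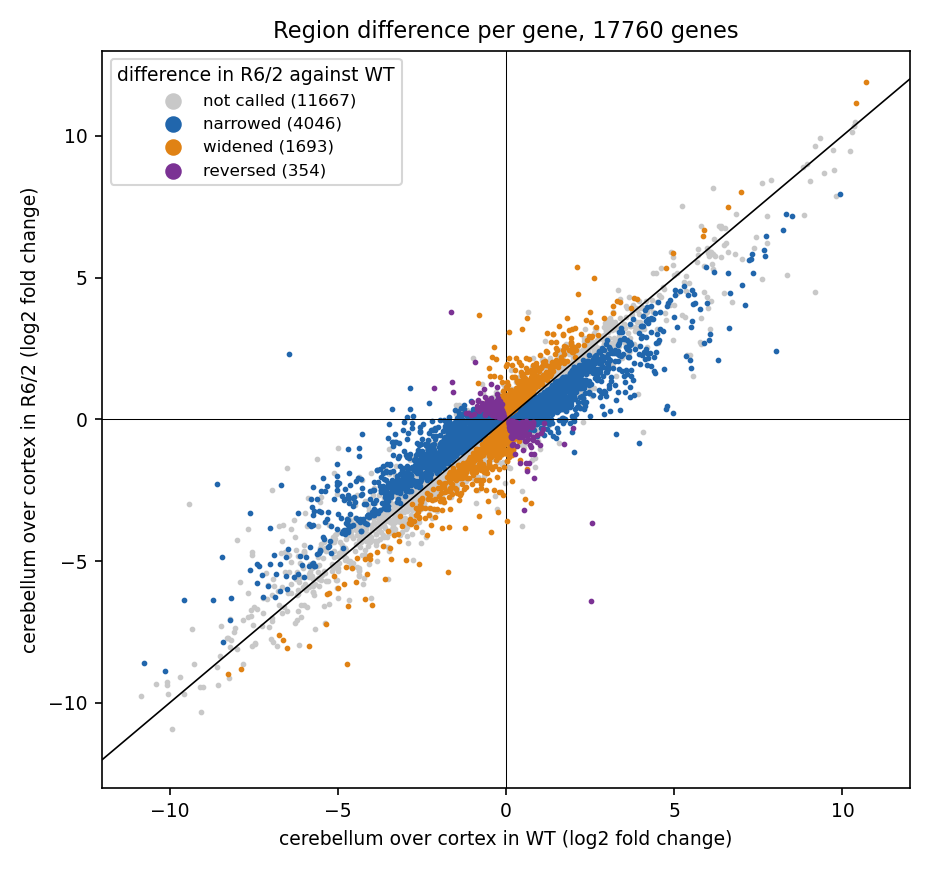
Region difference (log2 fold change of cerebellum over cortex) in WT on the x axis and in R6/2 on the y axis, 1 point per gene for 17760 genes, with the line of equal difference. Points coloured by the test of the genotype difference show 4046 narrowed, 1693 widened and 354 reversed genes. Most far-out points stay in the same quadrant and many lie nearer to 0 on the R6/2 axis.

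Granule cell genes led the cerebellar excess in R6/2. Gabra6 (chr11:42306437-42321072, GRCm38), the alpha 6 subunit of the GABA-A receptor, lay at 713 to 851 CPM (median 759) in R6/2 cerebellum and at 0 to 0.326 CPM (median 0.193) in R6/2 cortex. Every cerebellar library was far above every cortical one, and all cortical ones were below 1 CPM. The difference was 11.90 ± 0.23 (adjusted p = 1.5e-31), against 10.70 ± 0.21 (adjusted p = 1.8e-31) in WT. Fat2, a large protocadherin of granule cell axons, followed at 11.15 with 817 to 1043 CPM in R6/2 cerebellum. Cbln3, a cerebellin that granule cells secrete together with Cbln1, differed by 10.36. Cnpy1, an endoplasmic reticulum protein of the midbrain-hindbrain boundary, differed by 10.36. Dao, the D-amino acid oxidase that breaks down D-serine in cerebellar glia, differed by 10.15, and the antisense transcript Spag17os by 9.63; reads of an antisense gene and its partner cannot be told apart if the counting did not use strand. None of these except Gabra6 and Fat2 was called for the genotype difference, although in the CHDI-treated animals that difference was -0.60 for Cbln3 and -0.76 for Cnpy1 (edgeR adjusted p = 0.0054 and 0.036). On log2(FPKM + 1) values, which compress the trace cortical level, it was called for Cbln3 (-0.84), Cnpy1 (-0.58), Dao (-0.56) and Spag17os (1.08).

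The cortical side was led by forebrain regulators and interneuron genes. Vip (chr10:5639218-5647617), the peptide of an interneuron class, was at 13.1 to 20.6 CPM (median 15.6) in R6/2 cortex and at 0 to 0.0836 CPM (median 0) in R6/2 cerebellum, where the 10 libraries together held 8 counts. The groups were far apart in all 10 animals. The difference was -9.70 ± 0.21 (adjusted p = 4.5e-32) in R6/2 and -10.06 in WT by edgeR. Gda, the guanine deaminase of forebrain neurons, differed by -9.46, Fezf2, which specifies subcortical projection neurons, by -9.32, and Zfp831, a zinc finger gene, by -9.11. Dlx6os1, a long RNA of GABAergic neurons, had 2 counts over 10 R6/2 cerebellar libraries and 4136 over 10 cortical ones, and no fold is given for it. None of these 5 was called for the genotype difference, although on log2(FPKM + 1) values it was called for Vip (1.45) and Fezf2 (0.60), in the CHDI-treated animals for Gda (-0.84, edgeR adjusted p = 0.037), and for Zfp831 in 4 of the 20 fits that left out 1 animal. Vip itself fell in R6/2 cortex from 42.6 to 58.7 CPM to 13.1 to 20.6 CPM.

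Gabra6 and Fat2 were called widened in R6/2, through their trace level in cortex. Gabra6 was at 0.0634 to 1.32 CPM (median 0.45) in WT cortex and Fat2 at 0.159 to 1.59 CPM (median 0.759). These overlapped the R6/2 cortical ranges. The WT cortical library of female 3 was the highest for Gabra6, Fat2 and Cbln3 alike. The widening of both genes was not called with the animal as a block (edgeR adjusted p = 0.08 for Gabra6 and 0.11 for Fat2) or in the CHDI-treated animals (0.39 and 0.91), and Gabra6 lost it when the WT animal of that library was left out (adjusted p = 0.17, genotype difference 0.60). Fat2 lost its call in 15 of the 20 fits that left out 1 animal. The part of cerebellar tissue or reads in the cortical libraries was not tested.

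Retention was measured on genes chosen in other animals, so that the vehicle libraries described did not select them. In the CHDI-treated WT libraries 675 genes were at least 4-fold higher in cerebellum and 1286 at least 4-fold higher in cortex, of which 663 and 1265 were tested in the vehicle libraries. Of the 663 cerebellar genes, 613 (92.5%) were again at least 4-fold higher in vehicle WT and 434 (65.5%) in vehicle R6/2. Their median difference was 3.01 in WT and 2.39 in R6/2, beside -0.01 in R6/2 over all genes tested. In R6/2, 631 of the 663 were still called higher in cerebellum and 3 were called higher in cortex. Of the 1265 cortical genes, 1173 (92.7%) were past 4-fold in WT and 941 (74.4%) in R6/2, with median differences of 3.17 and 2.71 toward the cortex. In R6/2, 1233 of them were called in the same direction and 1 in the opposite one.

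The same held within every animal. The median difference of the cerebellar genes was 2.00 to 2.21 in the 10 R6/2 animals (median 2.10) and 2.62 to 2.71 in the 10 WT animals (median 2.67). That of the cortical genes was 2.17 to 2.43 (median 2.25) and 2.53 to 2.79 (median 2.74). No R6/2 animal reached the lowest WT animal on either measure. Per animal, 49.8 to 57.6% of the cerebellar genes were past 4-fold in R6/2 and 76.5 to 83.7% in WT, and for the cortical genes 56.4 to 65.5% and 71.3 to 82.5%. These per-animal values are differences of log2(CPM + 0.1), which understates the change of low genes. When the genes were chosen in the CHDI-treated R6/2 animals instead, 552 cerebellar genes had a median of 2.78 in R6/2 and 3.15 in WT, and 1041 cortical genes 3.14 and 3.45, although 88.6% and 93.3% were past 4-fold in R6/2 against 82.1% and 87.9% in WT.

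**Figure D2:**
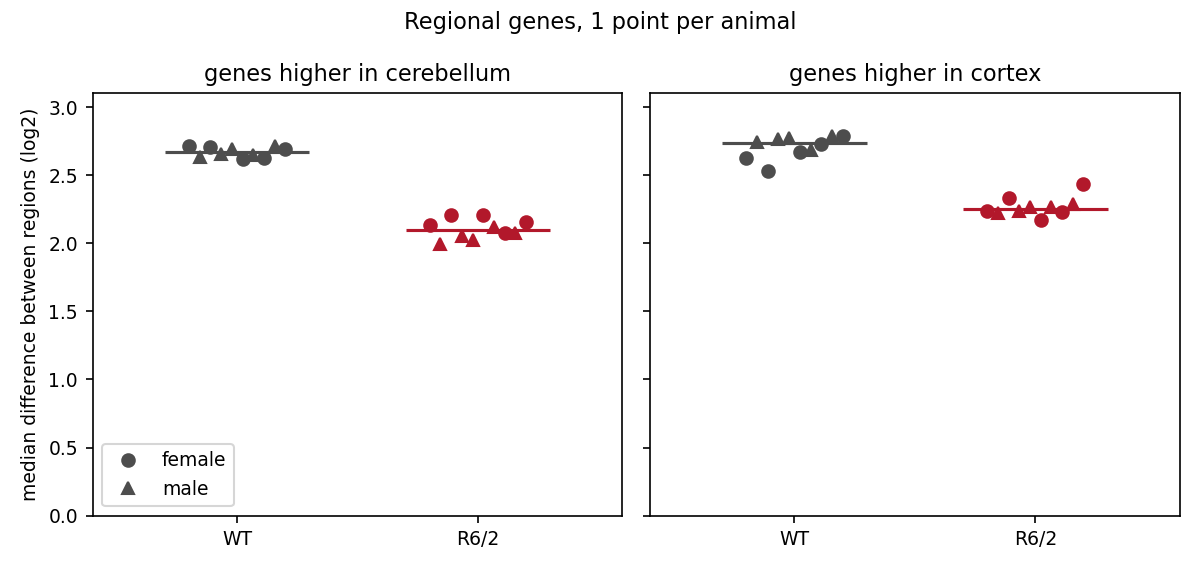
Median difference between the regions (log2, y axis) over 663 genes higher in cerebellum and 1265 genes higher in cortex, 1 point per animal, with the horizontal line at the median of 10 animals and separate symbols for females and males. R6/2 animals lie at 2.00 to 2.21 and 2.17 to 2.43, below all WT animals at 2.62 to 2.71 and 2.53 to 2.79.

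Among the regional genes called narrowed, more fell in the region where they were high than rose where they were low. These genes hold fewer counts in the low region, where a change is harder to call. Over all genes tested, 4373 were higher (24.6%) and 5004 lower (28.2%) in R6/2 than in WT cerebellum, and 4611 were higher (26%) and 4653 lower (26.2%) in R6/2 than in WT cortex. Among the 663 cerebellar genes, 65.5% fell and 8.0% rose in R6/2 cerebellum, whereas in cortex 17.9% rose and 25.8% fell. Among the 1265 cortical genes, 55.8% fell and 9% rose in R6/2 cortex, and in cerebellum 22.1% rose and 20.6% fell. Of the 309 narrowed cerebellar genes, 70.9% fell in cerebellum without rising in cortex, 10.7% rose in cortex without falling in cerebellum and 17.2% did both. Of the 477 narrowed cortical genes, 52.4% fell in cortex only, 22.2% rose in cerebellum only and 24.7% did both. In bulk tissue, fewer cells of a type and less RNA per cell cannot be told apart.

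Most Purkinje cell genes narrowed. All 20 tested members of the Purkinje list were still called higher in R6/2 cerebellum, with a median difference of 2.48 against 3.71 in WT, and all 20 fell in R6/2 cerebellum, where the median over all genes was -0.01. The test called 15 narrowed, beside 22.8% of all genes tested, and none widened or reversed (14 to 16 narrowed when any 1 animal was left out, 17 in the CHDI-treated animals). Summed over the list, R6/2 cerebellum held 3845 to 4560 CPM and WT cerebellum 10984 to 12818 CPM.

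Gng13 (chr17:25717171-25719406), a G protein gamma subunit, had the smallest p of the list for the genotype difference. It was at 12.5 to 18.5 CPM (median 14.1) in R6/2 cerebellum and 10.2 to 14.3 CPM (median 12.9) in R6/2 cortex, and these ranges overlapped. In WT it was at 122.7 ± 9.55 CPM in cerebellum (mean and SD, n = 10; lowest 108.5 CPM) and 14.4 to 19.5 CPM (median 16) in cortex, with no overlap. The region difference was 0.20 ± 0.07 (adjusted p = 0.0068) in R6/2 by edgeR and 2.91 in WT, a genotype difference of -2.71 ± 0.09 (adjusted p = 2.5e-23). On log2(FPKM + 1) of the authors' values its R6/2 difference turned over to -0.40, in favour of cortex, and in the CHDI-treated R6/2 animals it was 0.00. Slc1a6, the Purkinje glutamate transporter, was at 41.3 to 56.3 CPM in R6/2 and 130.9 to 159.5 CPM in WT cerebellum, and rose in cortex by 0.60. Its region difference was 2.37 in R6/2 and 4.45 in WT. Homer3, a scaffold that ties glutamate receptors to calcium stores, narrowed from 5.53 to 3.48. Ppp1r17, a Purkinje phosphatase inhibitor, narrowed from 9.93 to 7.95.

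Other Purkinje markers fell without losing their regional contrast. Pcp2, the classical Purkinje transcript, was at 53.7 to 82.8 CPM (median 73.9) in R6/2 and 151.1 to 239.6 CPM (median 217) in WT cerebellum. The same gene, at trace level in cortex, was at 0.07 to 0.221 CPM (median 0.142) in R6/2 and 0.0941 to 0.582 CPM (median 0.472) in WT. The cerebellar ranges did not overlap between the genotypes and the cortical ones did. It fell by 1.49 and 1.56 on the log2 scale, so that the region difference was 9.0 in R6/2 and 8.94 in WT, with the genotype difference not called (edgeR adjusted p = 0.86). On log2(FPKM + 1) values, which compress the trace level, that genotype difference was -1.13 and called. Lhx1, a factor of Purkinje cells, differed by 8.67 in R6/2 and was not called for the genotype difference either. Skor2, another, had 1 count over 10 R6/2 cortical libraries, and no fold is given for it. Per length, on the authors' FPKM scale, the mean levels in R6/2 cerebellum were 153.6 ± 18.6 for Pcp2, 139.5 ± 8.67 for Itpr1, 116.6 ± 11.5 for Car8 and 93.6 ± 7.37 for Calb1 (SD, n = 10), against 394 ± 57.6, 434 ± 18.9, 386 ± 57.4 and 235 ± 17 in WT. Between the genotypes, the ranges of 1 SD around the mean did not overlap for any of these 4 genes. Within R6/2, the ranges of Pcp2 and Itpr1 overlapped each other. Car8, Itpr1 and Calb1, unlike Pcp2, were called narrowed.

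Granule cell genes moved both ways. Of 22 listed members, 21 were called higher in R6/2 cerebellum and 1, the glutamate vesicle transporter Slc17a7, higher in cortex, as in WT. Slc17a7 was called narrowed (-1.33 to -1.11) but lost that call in 4 of the 20 fits that left out 1 animal, at a genotype difference of 0.20 or 0.21, and in the CHDI-treated animals, at 0.12 (edgeR adjusted p = 0.34). The list's median was 4.35 in R6/2 and 4.74 in WT, with 10 members narrowed and 6 widened, beside 22.8% and 9.53% of all genes. The median genotype difference per gene was 0.11, opposite in sign to the gap between these 2 medians. Grm4, a presynaptic glutamate receptor, narrowed from 4.32 to 3.09 with cerebellar levels of 82.9 to 113.1 CPM in R6/2 and 281 to 489 CPM in WT. Chn2, a Rac-regulating chimaerin, narrowed from 4.32 to 3.54, and the factor Neurod1 from 5.01 to 4.56. Gabrd, the delta subunit that pairs with Gabra6, widened from 1.5 ± 0.05 to 2.72 ± 0.05 (edgeR adjusted p of the genotype difference = 9.2e-17). It fell in both regions, from 197 ± 12.5 to 131.3 ± 10.1 CPM in cerebellum (mean and SD, n = 10) and from 64.6 to 82.1 CPM to 16.6 to 23.7 CPM in cortex, and the cortical fall was the larger. Tlx3, a granule cell homeobox gene, had 1 count over 10 R6/2 cortical libraries and 3.56 to 7.08 CPM in R6/2 cerebellum. Per length, Gabra6 was at 356 ± 17.9 FPKM in R6/2 cerebellum and 360.2 ± 15.2 in WT, while Cbln3 was at 186 ± 11.5 in R6/2 and 372 ± 26 in WT.

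The list of cerebellar interneurons and brush cells was mixed in region, with 7 of 13 members higher in R6/2 cerebellum and 5 higher in R6/2 cortex. Its median was 0.52 in R6/2 and 0.70 in WT, and 6 members narrowed and 4 widened, beside 22.8% and 9.53% of all genes. The median genotype difference per gene was -0.68. Slc6a5, the glycine transporter of Golgi cells, narrowed from 8.31 to 7.24, and Kit, of basket and stellate cells, from 2.54 to 1.86. Tfap2b, a factor of GABAergic cerebellar cells, narrowed from 5.59 to 4.41. Eomes, a marker of unipolar brush cells, was at 2.88 to 4.49 CPM in R6/2 and 9.01 to 29.7 CPM in WT cerebellum without overlap, but its genotype difference was not called (edgeR adjusted p = 0.096). All 11 Bergmann glia genes were called higher in R6/2 cerebellum, with a median of 1.89 against 2.21 in WT, 4 narrowed and 4 widened. Gdf10 was at 89 to 132.3 CPM in R6/2 and 124.7 to 188 CPM in WT cerebellum and narrowed from 5.17 to 4.53, whereas Timp4, a protease inhibitor, widened from 2.54 to 2.92. The septin Sept4 narrowed from 1.36 to 1.02, and the matrix protein Tnc, at 2.39 in R6/2, was not called.

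**Figure D3:**
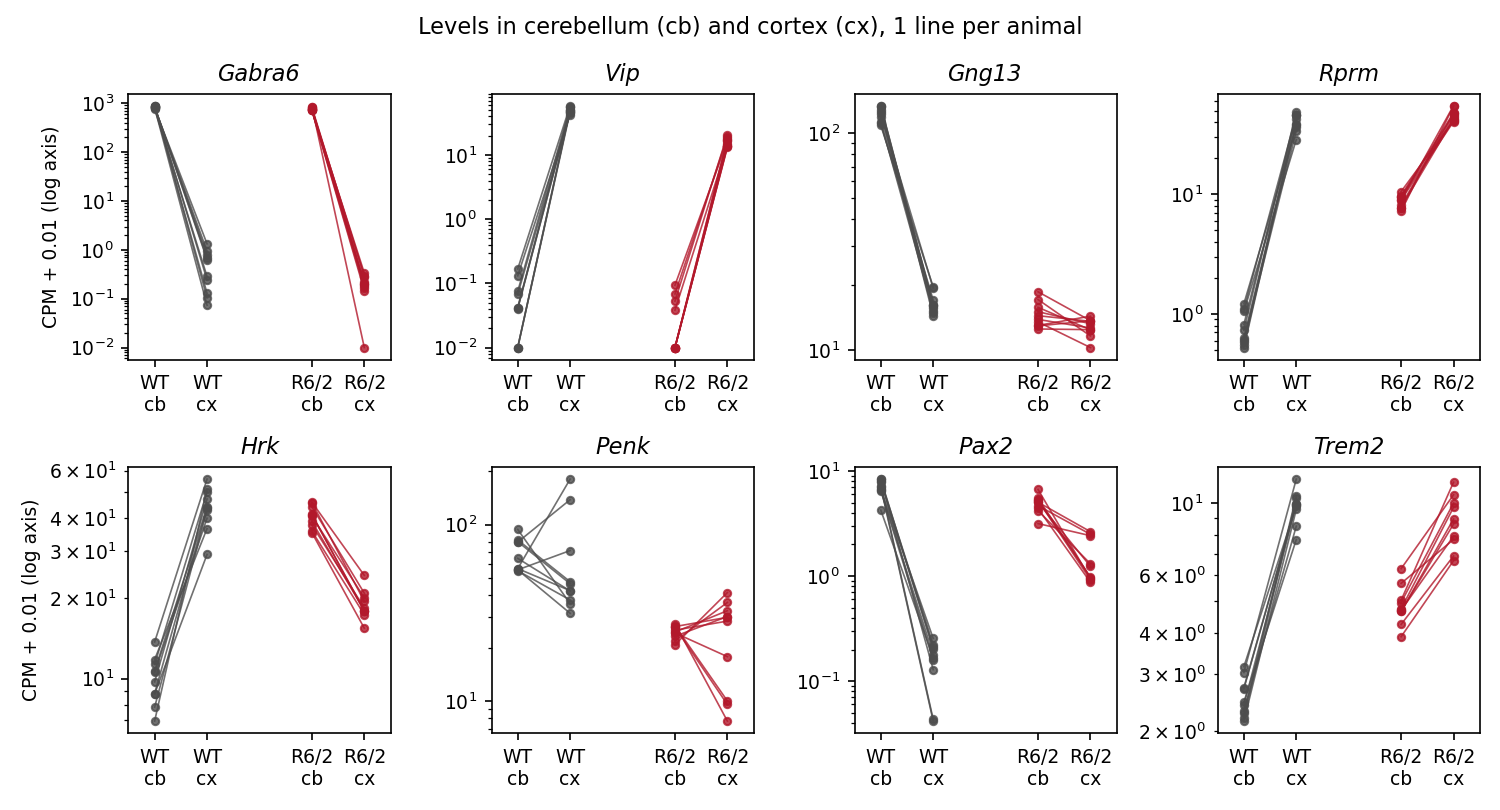
Levels in CPM + 0.01 (log axis) of 8 genes in cerebellum (cb) and cortex (cx), with 1 line per animal joining its 2 libraries, WT in grey and R6/2 in red. Gabra6 and Vip keep steep lines in both genotypes, Gng13 is nearly flat in R6/2, Hrk slopes in opposite directions, and Rprm, Pax2 and Trem2 rise in the region where they are low.

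Upper-layer genes of the cortex mostly fell and came closer to their cerebellar level. Of 14 upper-layer genes 12 were called higher in R6/2 cortex, 9 narrowed and 1 widened, and 13 fell in R6/2 cortex. The median was -1.37 against -2.13 in WT. Per gene, the median genotype difference was 0.46, less than the gap between these 2 medians. Over all genes 22.8% narrowed, 9.53% widened and 26.2% fell in cortex. The summed level was 431.8 to 501.6 CPM in R6/2 cortex and 931.6 to 1027 CPM in WT cortex. Stard8, a lipid transfer domain protein, was at 13.7 to 21.6 CPM (median 15.5) in R6/2 cortex and 39.6 to 54.9 CPM (median 49.6) in WT cortex, without overlap. Its cerebellar level was 9.92 to 13.6 CPM in R6/2 and 11.5 to 15.2 CPM in WT. The difference narrowed from -1.87 ± 0.07 to -0.42 ± 0.07 (edgeR adjusted p = 6.8e-15).

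Otof, the vesicle protein otoferlin, narrowed from -3.35 to -0.94, and in the CHDI-treated R6/2 animals its difference was 0.11 and not called. Rspo1, a Wnt agonist, narrowed from -5.78 to -3.11. Rasgrf2, a Ras exchange factor of upper layers, had the largest R6/2 difference of the list at -4.71, against -5.20 in WT. The 17 tested deep-layer genes had a median of -2.39 in R6/2 and -2.30 in WT, and 16 were higher in R6/2 cortex. Of these 17, 6 narrowed and 3 widened, beside 22.8% and 9.53% of all genes. Ntsr1, of layer 6 projection neurons, was at 7.31 to 13.3 CPM in R6/2 cortex and differed by -7.31 in R6/2 and -7.27 in WT. Cplx3, of subplate-derived neurons, widened from -4.19 to -6.34, falling in both regions, from 15.1 to 33.2 CPM to 3.76 to 15.8 CPM in cortex; with FPKM values that genotype difference was 0.82, in the opposite direction.

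Cortical excitatory signalling genes kept large differences while most of them fell. Of 18 genes 17 were higher in R6/2 cortex, with a median of -5.15 against -4.17 in WT. Of these 18, 8 narrowed and 5 widened, beside 22.8% and 9.53% of all genes. The median genotype difference per gene was only -0.10, far less than the gap between these 2 medians. At the same time 14 fell in R6/2 cortex and 12 fell in R6/2 cerebellum, beside 26.2% and 28.2% of all genes. Camk2a, the main calcium-dependent kinase of forebrain synapses, was at 1532 to 1959 CPM (median 1653) in R6/2 cortex and 32.4 to 41.6 CPM (median 36.3) in R6/2 cerebellum. In WT it was at 2791 to 3680 CPM and 84.2 to 107.1 CPM, so it was lower in R6/2 in both regions without overlap. The region difference was -5.53 in R6/2 and -5.13 in WT, called widened (edgeR adjusted p = 2.3e-05). Ddn, the postsynaptic protein dendrin, narrowed from -10.14 to -8.88, Arpp21, an RNA-binding phosphoprotein, from -2.16 to -1.33, and the AMPA receptor partner Cnih3 widened from -4.83 to -5.80. The calmodulin-binding Nrgn (-8.73), the potassium channel subunit Kcnv1 (-9.08) and the adhesion protein Icam5 (-8.99) were also among the largest R6/2 differences of the list.

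Of 17 cortical interneuron genes 14 were higher in R6/2 cortex and 14 fell there, the median was -5.64 against -5.93 in WT, and 4 narrowed, 2 widened and 1 reversed. The shares narrowed and widened are close to the 22.8% and 9.53% of all genes, and the median genotype difference per gene was 0.02. In cortex 26.2% of all genes fell. Cck, a peptide of one interneuron class and of pyramidal cells, widened from -3.43 to -4.92, as it fell from 11.1 to 16.6 CPM to 2.12 to 3.62 CPM in cerebellum. Htr3a, the ionotropic serotonin receptor, narrowed from -6.73 to -5.10. Erbb4, the neuregulin receptor, was the reversed one: it was at 90.5 to 130.5 CPM in R6/2 cerebellum and 68.1 to 86 CPM in R6/2 cortex, and in WT at 47.1 to 68.1 CPM in cerebellum and at 104.8 ± 12 CPM in cortex (mean and SD, n = 10). It was higher in cerebellum in 10 of 10 R6/2 animals and higher in cortex in 10 of 10 WT animals.

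Among 22 immediate early genes, which neurons induce on activity, 17 were higher in R6/2 cortex, and 19 fell there, beside 26.2% of all genes. Their median was -1.49 against -2.04 in WT, 6 narrowed and 2 widened, and the median genotype difference per gene was 0.21. The shares narrowed and widened were close to the 22.8% and 9.53% of all genes. Nptx2, a secreted pentraxin of excitatory synapses, narrowed from -5.57 to -3.23 through changes in both regions, with cortical levels of 30.3 to 58.1 CPM in WT and 14.5 to 47.5 CPM in R6/2 and cerebellar levels of 0.517 to 1.42 CPM and 1.03 to 2.95 CPM. Homer1, the scaffold whose short form is induced by activity, narrowed from -2.18 to -1.12. Arc, a capsid-like protein of active synapses, was at 43.9 ± 23.6 CPM in R6/2 cortex (mean and SD, n = 10, median 38) and 21.6 to 30.2 CPM (median 24.8) in R6/2 cerebellum. These ranges overlapped, whereas WT cortex at 78 to 549.6 CPM lay above WT cerebellum at 18.3 to 24 CPM. Its R6/2 difference, -0.82 ± 0.30 (adjusted p = 0.015) by edgeR, was not called with the run as a covariate (-0.54) or without the animal of cortical replicate F4 (-0.53). Jun went the other way, widening from 0.74 to 1.74 as it rose in cerebellum from 39.3 to 62.6 CPM to 67.3 to 108.7 CPM. Egr3 (-8.03), Fosb (-4.64) and Egr1 (-3.50) kept their cortical excess and were not called for the genotype difference, and Egr4 widened from -2.28 to -3.37.

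Part of the hindbrain transcription factors rose in R6/2 cortex, where they are low. Of 30 hindbrain factors 27 were tested, of which 24 were higher in R6/2 cerebellum. The median was 4.41 against 5.56 in WT, and the median genotype difference per gene was -0.42. The test called 10 narrowed and 4 widened, beside 22.8% and 9.53% of all genes. In R6/2 cortex 13 of the 27 rose, beside 26% of all genes tested, and none fell (11 to 14 rose when any 1 animal was left out; in the CHDI-treated animals 10 narrowed and 3 widened of 26 tested), while in R6/2 cerebellum 9 rose and 7 fell. The summed level of the list was 43.3 to 92.6 CPM in R6/2 cortex and 32 to 53 CPM in WT cortex, against 1594 to 1763 CPM in R6/2 cerebellum. Pax2 (chr19:44756045-44837871), a paired-box factor of the midbrain-hindbrain boundary and of cerebellar interneuron precursors, was at 0.862 to 2.63 CPM (median 1.1) in R6/2 cortex and 0.0317 to 0.245 CPM (median 0.163) in WT cortex. All R6/2 cortical libraries lay above all WT ones, and the 3 highest were those of females 3, 4 and 5. It rose in cortex by 3.15 ± 0.23 (adjusted p = 1.9e-14) in edgeR's test, fell in cerebellum by 0.53, and the region difference narrowed from 5.51 to 1.82.

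Irx5 and Irx2, Iroquois factors of hindbrain patterning, rose in R6/2 cortex by 3.13 and 2.11, to 0.209 to 0.476 CPM and 0.0313 to 0.209 CPM. Tfap2a, an AP-2 factor of cerebellar GABAergic cells, rose there by 1.49 and En2, the engrailed gene that persists in adult cerebellum, by 1.05. En2 was at 0.727 to 2.38 CPM (median 1.02) in R6/2 cortex and 0.257 to 1.08 CPM (median 0.533) in WT cortex, and these ranges overlapped. All of these levels in cortex stayed far below the cerebellar ones, for example 92.2 to 113.2 CPM for En2 in R6/2 cerebellum. Pax3, a further factor of the list, had 1 count over 10 R6/2 cortical libraries and 7.72 to 9.19 CPM in R6/2 cerebellum, so a rise was not detectable at this depth. In cortex, where they are at trace level, Gabra6 was lower in R6/2 by 1.33, Fat2 by 1.01 and Cbln3 by 1.13 on the log2 scale. The cortical ranges of these 3 genes overlapped between the genotypes. Of the 22 granule cell genes 12 fell and 4 rose in R6/2 cortex, beside 26.2% and 26% of all genes.

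Pou4f1, a brainstem and sensory neuron factor, was at 1.07 to 2.54 CPM (median 1.92) in R6/2 cortex and 0.309 to 0.731 CPM (median 0.437) in R6/2 cerebellum, above 0 to 0.226 CPM and 0 to 0.0787 CPM in WT. It rose in both regions and was higher in cortex in R6/2, at -2.02, against -0.28 and not called in WT. The genotype difference, -1.74 ± 0.65 (adjusted p = 0.035) by edgeR, was lost in 7 of the 20 fits that left out 1 animal, where it lay between -1.69 and -1.49. It was not called either with sex as an additive term (-1.40), with a term for library run (-1.63) or with the title number as a block (-1.72), but was in the CHDI-treated animals (-3.21). Hoxb5, a posterior patterning gene of the brainstem list, had 215 counts over all 10 R6/2 cortical libraries, 2 over the R6/2 cerebellar ones, 18 over WT cerebellum and 2 over WT cortex, and no fold is given.

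Among 31 forebrain factors, 28 were higher in R6/2 cortex, and the median was -5.40 against -5.55 in WT. Of these 31, 12 narrowed and 5 widened, beside 22.8% and 9.53% of all genes. In R6/2 cerebellum, where they are low, 7 rose and 7 fell, shares below the 24.6% and 28.2% of all genes, and in R6/2 cortex 3 rose and 12 fell, beside 26% and 26.2%. Tbr1, a factor of early-born projection neurons, was at 1.01 to 1.77 CPM (median 1.3) in R6/2 cerebellum and 0.268 to 0.813 CPM (median 0.441) in WT cerebellum, without overlap. It rose there by 1.41, fell in cortex by 0.46, and narrowed from -8.18 to -6.30. Otx1, an anterior patterning gene, rose there by 1.02. Dlx2, which specifies GABAergic neurons, had 25 counts over 10 R6/2 cerebellar libraries and 1 over 10 WT ones. Its narrowing was not called in the CHDI-treated animals (genotype difference 0.50, edgeR adjusted p = 0.59). Bcl11a, a zinc finger factor, widened toward cortex from -2.69 to -3.38. Cux1, known from upper layers but higher in cerebellum here, widened from 0.52 to 1.04. Emx2, a forebrain patterning gene, was at 6.78 to 9.25 CPM in R6/2 cortex, while the 10 R6/2 cerebellar libraries together held 3 counts.

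**Figure D4:**
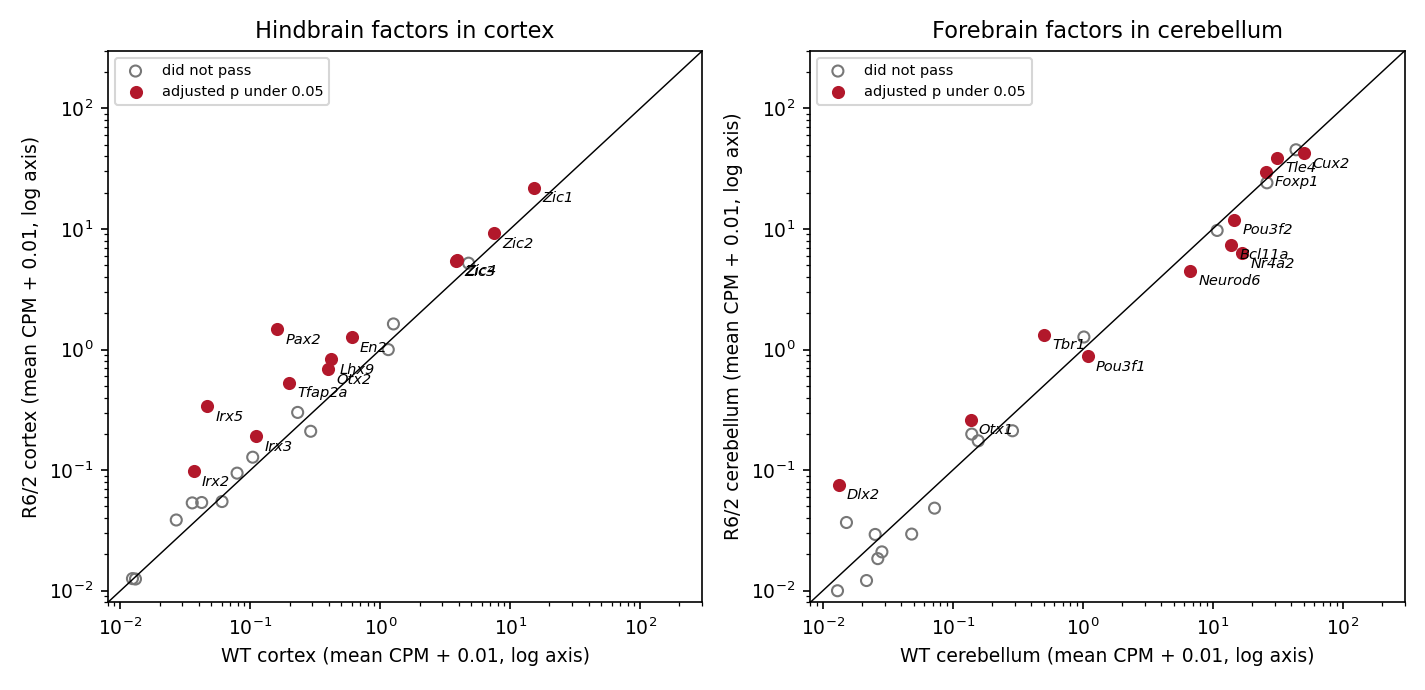
Mean level (CPM + 0.01, log axes) in WT on the x axis and R6/2 on the y axis, for hindbrain factors in cortex and forebrain factors in cerebellum, 1 point per gene shown of 10 libraries per group, with the line of equal level. Filled points passed the test between genotypes: the hindbrain factors that passed all lie above the line in cortex, and the forebrain factors that passed lie on both sides of it in cerebellum.

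The promoters of the genes that show these patterns are given for reference. They run from 250 bases before to 50 after the start of the RefSeq transcript (GRCm38.p6) and are written along the gene's strand with every CG dinucleotide in capitals. Gabra6 (chr11:42321023-42321322, minus strand) and Cbln3 (chr14:55884207-55884506, minus strand) show granule genes that stayed at trace level in cortex. Pax2 (chr19:44756656-44756955, plus strand, 1 of 3 listed starts), Rprm (chr2:54085503-54085802, minus strand) and Hrk (chr5:118169514-118169813, plus strand) show genes that rose in the region where WT holds less.
Gabra6: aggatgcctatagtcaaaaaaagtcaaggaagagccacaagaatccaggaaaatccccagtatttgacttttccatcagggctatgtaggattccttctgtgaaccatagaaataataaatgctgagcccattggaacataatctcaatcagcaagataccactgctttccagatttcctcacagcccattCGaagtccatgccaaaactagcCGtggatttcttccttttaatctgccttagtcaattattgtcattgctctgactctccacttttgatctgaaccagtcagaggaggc
Cbln3: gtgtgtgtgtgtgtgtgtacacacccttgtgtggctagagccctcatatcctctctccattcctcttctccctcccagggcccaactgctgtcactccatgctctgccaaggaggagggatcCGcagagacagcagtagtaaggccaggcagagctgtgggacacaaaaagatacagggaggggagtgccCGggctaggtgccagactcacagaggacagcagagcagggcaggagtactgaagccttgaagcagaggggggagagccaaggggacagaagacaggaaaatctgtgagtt
Pax2: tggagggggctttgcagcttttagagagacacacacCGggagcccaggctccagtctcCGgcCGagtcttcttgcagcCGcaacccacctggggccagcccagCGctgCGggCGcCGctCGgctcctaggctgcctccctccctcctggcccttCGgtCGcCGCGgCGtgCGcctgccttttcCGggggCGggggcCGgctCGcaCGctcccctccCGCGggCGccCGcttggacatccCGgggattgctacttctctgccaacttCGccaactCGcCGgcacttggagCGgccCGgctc
Rprm: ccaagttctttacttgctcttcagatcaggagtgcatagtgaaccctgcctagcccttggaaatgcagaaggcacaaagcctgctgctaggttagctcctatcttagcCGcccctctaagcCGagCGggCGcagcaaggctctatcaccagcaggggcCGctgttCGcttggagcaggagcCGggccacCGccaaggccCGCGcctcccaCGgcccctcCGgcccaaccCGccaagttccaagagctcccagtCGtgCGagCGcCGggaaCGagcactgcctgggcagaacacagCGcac
Hrk: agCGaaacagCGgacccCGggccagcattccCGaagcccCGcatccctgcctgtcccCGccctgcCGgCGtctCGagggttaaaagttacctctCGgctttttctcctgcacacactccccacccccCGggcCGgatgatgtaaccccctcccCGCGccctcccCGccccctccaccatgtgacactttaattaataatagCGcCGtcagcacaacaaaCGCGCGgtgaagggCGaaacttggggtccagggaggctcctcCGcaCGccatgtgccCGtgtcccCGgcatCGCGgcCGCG
Gabra6 and Cbln3 hold 2 CG each, a number that 85.9% of the 32851 mouse promoters in the same table reach or exceed. Pax2 holds 30 (11.7% hold as many or more), Hrk 29 (12.9%) and Rprm 19 (28.1%), and the median over all promoters is 7. Over the 12797 tested genes with an entry the median is 20, and against it Rprm lies just below, Pax2 and Hrk above, and Gabra6 and Cbln3 far below. Only the letters CG were searched, which read the same on both strands. These are 5 chosen promoters. Only 72.1% of the genes tested have an entry in the table, and 60.8% to 71.3% of each class below. Of the 663 cerebellar genes chosen above, those that rose in R6/2 cortex had a median of 15 and those not called there 11. Those that fell in R6/2 cerebellum had 13 and those not called there 9. For the 1265 cortical genes both comparisons, rise in cerebellum and fall in cortex, gave 15 and 12. A link of CG number with these changes was not tested.

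Among the 6 genes with the largest narrowing on the cerebellar side, 5 fell in cerebellum without overlap; the other was Pax2, described above, which rose in cortex. Car9 (chr4:43506966-43513729), a carbonic anhydrase, was at 0.14 to 0.565 CPM (median 0.257) in R6/2 cerebellum and 0.0885 to 0.479 CPM (median 0.255) in R6/2 cortex, ranges that overlapped. In WT cerebellum it was at 5.85 to 12.6 CPM (median 8.13), above every WT cortical library. Its difference was 0.22 ± 0.27 (adjusted p = 0.46) in R6/2 by edgeR and 4.97 in WT, and 5 of 10 R6/2 animals had the higher level in cerebellum. Myo15, an unconventional myosin, went from 3.27 to -0.53, Ccdc63, a coiled-coil gene, from 5.48 to 2.08, Mdfi, an inhibitor of myogenic factors, from 5.36 to 2.22, and Corin, a membrane protease, from 4.71 to 1.79. The cerebellar level of each fell without overlap between the genotypes, to 1.09 to 1.92 CPM from 10.2 to 15.4 CPM for Corin.

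On the cortical side the largest narrowings came from either region. Rprm (chr2:54084093-54085552), a p53-induced cell cycle gene that marks deep-layer neurons, was at 7.22 to 10.5 CPM (median 8.95) in R6/2 cerebellum and 0.514 to 1.21 CPM (median 0.671) in WT cerebellum. Its cortical level was 40.6 to 55.2 CPM in R6/2 and 28.7 to 49.1 CPM in WT. Every R6/2 cerebellar library was thus above every WT one, and the difference narrowed from -5.73 ± 0.11 to -2.39 ± 0.09 (edgeR adjusted p = 8.4e-21). Fam163b, a membrane protein gene, rose in cerebellum from 4.05 to 11.5 CPM to 35.1 to 63.2 CPM and narrowed from -4.37 to -1.01. Plppr1, a phospholipid phosphatase-related gene of neurite growth, rose there from 0.645 to 11.2 CPM to 14.8 to 30.3 CPM and went from -2.94 to 0.10. Egr2, an activity-induced factor, fell instead in cortex, from 2.56 to 37.2 CPM to 0.376 to 2.69 CPM, and went from -7.62 to -3.30. Adam33, a metalloprotease gene, also fell in cortex and went from -5.44 to -2.08.

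Among the widened genes named, Rprml, Rasal1 and Muc3a fell in cerebellum, and Ntf3 and Col17a1 rose there. Rprml, a paralog of Rprm, was at 0 to 0.113 CPM (median 0.0281) in R6/2 cerebellum and 0.288 to 1.65 CPM (median 0.586) in WT cerebellum, with 8.91 to 21.7 CPM in R6/2 cortex. Its difference went from -4.72 ± 0.21 to -8.63 ± 0.31 (edgeR adjusted p = 1.4e-08), opposite to Rprm. Rasal1, a Ras GTPase-activating protein, fell in cerebellum from 8.13 to 18.6 CPM to 0.947 to 2.41 CPM and widened from -2.57 to -5.10. Muc3a, a membrane mucin, fell there from 4.51 to 14.8 CPM to 0.422 to 0.842 CPM and went from -0.24 to -3.26. Ntf3, neurotrophin 3, which granule cells express, widened toward cerebellum from 2.15 to 4.40, rising in cerebellum from 3.63 to 5.9 CPM to 8.57 to 11.6 CPM and falling in cortex from 0.705 to 1.74 CPM to 0.34 to 0.607 CPM. Col17a1, a transmembrane collagen, widened toward cerebellum from 2.62 to 4.99. Crym, a thyroid hormone-binding protein, was called widened (-3.98 to -6.54), with 0 to 2 CPM (median 0.132) in R6/2 and 0 to 10.5 CPM (median 0.0646) in WT cerebellum. These ranges overlapped, the R6/2 median was the higher, and the WT mean and SD were 2.97 ± 4.64 CPM. It lost the call in 11 of the 20 fits that left out 1 animal, and its genotype difference was 0.78 without the WT animal of cortical replicate F1 and 0.10 in the CHDI-treated animals.

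Direction itself turned over in 354 genes. Hrk (chr5:118164648-118189478), a BH3-only inducer of neuronal apoptosis, was at 35.2 to 45.7 CPM (median 40.8) in R6/2 cerebellum and 15.4 to 24.3 CPM (median 18.2) in R6/2 cortex. In WT it was at 6.93 to 13.7 CPM (median 10.1) in cerebellum and 29.1 to 55.8 CPM (median 43.7) in cortex. Neither pair of ranges overlapped, and 10 of 10 animals went each way. The difference was 1.10 ± 0.09 (adjusted p = 4e-13) in R6/2 and -2.14 ± 0.10 (adjusted p = 2.7e-21) in WT by edgeR. Sdk1, a synaptic adhesion molecule, went from -1.57 to 0.96 and Synpr, a synaptic vesicle protein, from -0.66 to 1.08, in both cases with a higher R6/2 than WT level in cerebellum. Gcnt1, a glycosyltransferase, went from 1.73 to -0.88, Igfbp5, an IGF-binding protein, from 0.41 to -1.55, and Nab2, a corepressor of Egr factors, from 0.75 to -0.98. These 3 fell in cerebellum, Igfbp5 from 183 to 256 CPM to 21.9 to 30.4 CPM. All 6 were reversed in the CHDI-treated animals too.

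Many genes changed in R6/2 without any call on their regional contrast. In both regions 2627 genes fell, of which 1692 were not called for the genotype difference, and 2474 rose, of which 1917 were not called. A further 431 genes fell in cerebellum and rose in cortex, 292 of them narrowed, and 438 rose in cerebellum and fell in cortex, 322 of them narrowed. Camkk1, a kinase that activates other calcium-dependent kinases, fell by 0.79 in each region, from 68.9 to 81.7 CPM to 40.2 to 45.7 CPM in cerebellum and from 127.8 to 167 CPM to 70.5 to 122.8 CPM in cortex. Its region difference was -0.99 in both genotypes. Gad1, a GABA-synthesizing enzyme, fell by 0.90 and 0.91 and kept a difference of 0.52 against 0.50. Penk, the enkephalin precursor, fell by 1.45 and 1.5, with mean levels of 67.8 ± 14.6 and 67.3 ± 50.8 CPM in WT cerebellum and cortex and 24.7 ± 2.15 and 24.4 ± 12.1 CPM in R6/2 (SD, n = 10). In the CHDI-treated R6/2 animals, however, Penk was called higher in cerebellum, at 1.07 (edgeR adjusted p = 1.4e-05).

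Receptor and calcium-signalling genes had contrasts of both kinds. Of 25 tested glutamate receptor subunits, 9 were higher in R6/2 cerebellum and 15 in R6/2 cortex. Of these 25, 10 narrowed and 11 widened, beside 22.8% and 9.53% of all genes, and 20 fell in cerebellum, beside 28.2%. The list's median was -0.77 in R6/2 and -0.31 in WT. The kainate receptor Grik1 narrowed from 1.01 to 0.21 and the metabotropic Grm7 widened from -1.28 to -2.0. The NMDA subunits that mark each region, Grin2b of cortex (-4.17 in R6/2, -4.00 in WT) and Grin2c of granule cells (3.25 and 3.06), were not called for the genotype difference. Grin2c was called widened in the CHDI-treated animals (0.29, edgeR adjusted p = 0.0025) and in 2 of the 20 fits that left out 1 animal.

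GABA-A receptor subunits had genotype calls of both kinds. Of 16 tested, 4 were higher in R6/2 cerebellum and 10 in R6/2 cortex, the median was -0.73 against -0.80 in WT, and 2 narrowed and 2 widened, beside 22.8% and 9.53% of all genes. Gabra5, a cortical and hippocampal subunit, differed by -5.26 in R6/2 and -5.14 in WT. Gabra3 narrowed from -3.52 to -2.88. Of 23 calcium kinase and cerebellin genes 18 fell in R6/2 cerebellum and 20 in R6/2 cortex, beside 28.2% and 26.2% of all genes. Of the 23, 5 narrowed, 4 widened and 1 reversed, and the share narrowed was close to that of all genes. The median was -0.26 in R6/2 and -0.58 in WT, while the median genotype difference per gene was 0.0. Prkcd, a kinase C isoform of some Purkinje cells and of thalamus, narrowed from 3.11 to 1.49, and Camk1d, a calcium-dependent kinase, widened from -0.88 to -1.86. Cbln2, the cortical cerebellin, differed by -6.97 in R6/2 and Cbln1 by 6.16 in the opposite direction.

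**Figure D5:**
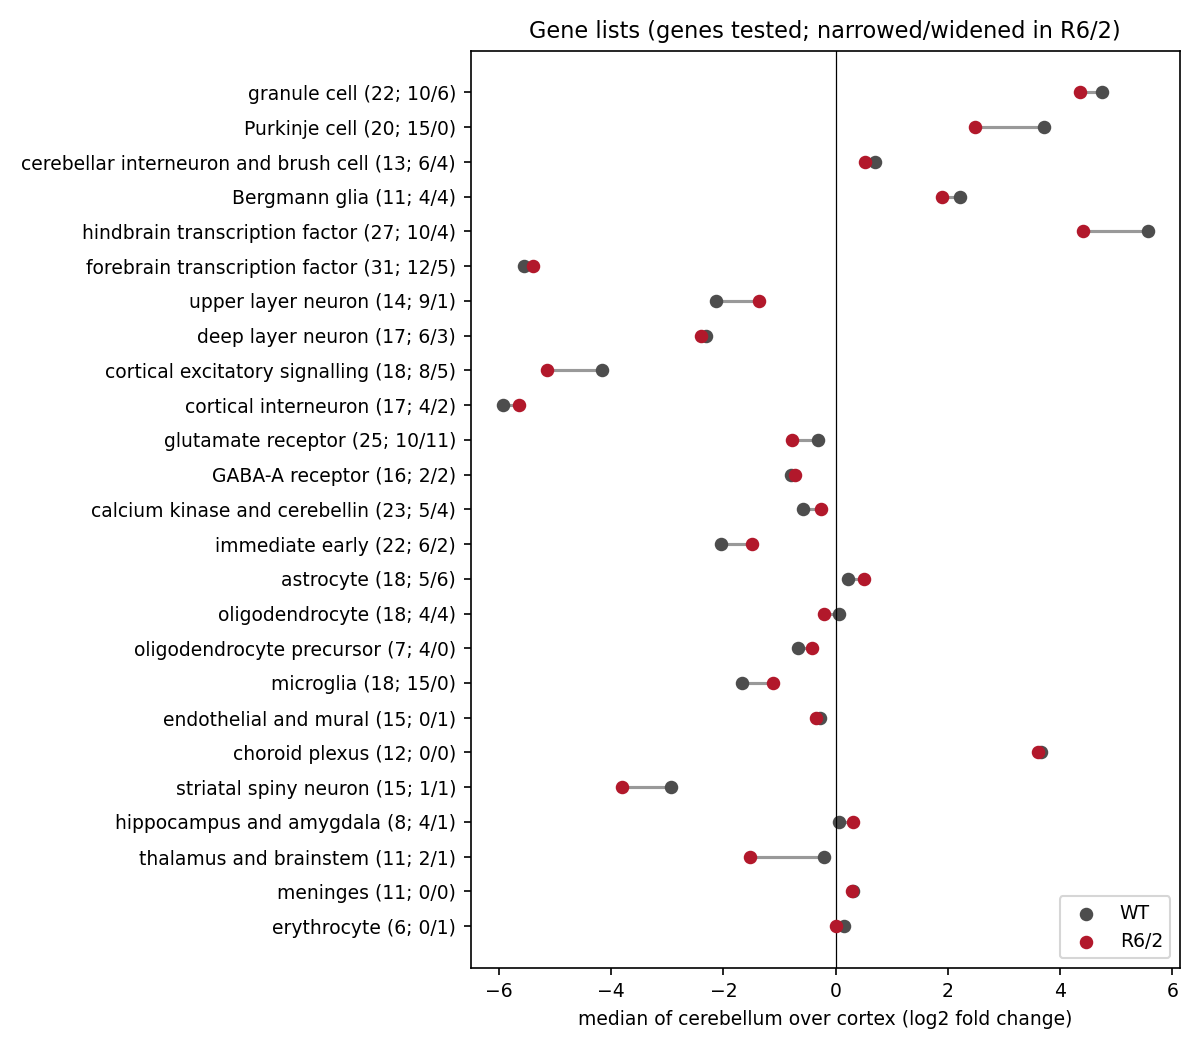
Median region difference (log2 fold change of cerebellum over cortex, x axis) of each of 25 gene lists in WT (grey) and R6/2 (red), with the number of genes tested and the numbers narrowed and widened after each name. The Purkinje list moves from 3.71 to 2.48 and the microglia list from -1.66 to -1.11, toward 0. The choroid plexus list, at 3.66 and 3.61, holds no member called for the genotype difference, and its levels varied widely between libraries. Each point is a median within 1 genotype, so the gap between 2 points need not equal the median change per gene.

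Microglia genes rose in R6/2 cerebellum and came closer to their cortical level. All 18 were called higher in R6/2 cortex, with a median of -1.11 against -1.66 in WT, 15 narrowed, beside 22.8% of all genes, and none widened. All 18 rose in R6/2 cerebellum, beside 24.6% of all genes, while in R6/2 cortex 2 rose and 1 fell. The summed level was 234.3 to 308.9 CPM in R6/2 cerebellum and 162.3 to 218.7 CPM in WT cerebellum, and 501.4 to 663.7 and 497.7 to 723.8 CPM in cortex. Trem2, a lipid receptor of microglia, was at 3.89 to 6.28 CPM (median 4.71) in R6/2 cerebellum and 2.14 to 3.15 CPM (median 2.42) in WT cerebellum, with no overlap. In cortex it was at 6.65 to 11.6 CPM (median 8.76) and 7.72 to 11.8 CPM (median 9.9), which overlapped. The difference narrowed from -1.95 ± 0.10 to -0.86 ± 0.09 (edgeR adjusted p = 3.1e-08). Fcrls, a rodent microglial receptor, narrowed from -2.62 to -1.16 and the lysosomal Laptm5 from -1.65 to -1.07. The purinergic receptor P2ry12 narrowed from -2.24 to -1.77, and Siglech, at -1.78 in R6/2, was not called.

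Astrocyte and oligodendrocyte genes held calls in both directions, beside 22.8% narrowed and 9.53% widened over all genes. Of 18 astrocyte genes 14 were higher in R6/2 cerebellum, 5 narrowed and 6 widened, with medians of 0.50 in R6/2 and 0.23 in WT. Slc1a2, the main forebrain glutamate transporter, narrowed from -1.99 to -1.46, falling in cortex from 3441 to 4311 CPM to 1926 to 2404 CPM. Slc4a4, a bicarbonate transporter, widened from 1.71 to 2.05 and the folate enzyme Aldh1l1 from 0.06 to 0.50. Of 18 oligodendrocyte genes 1 was higher in R6/2 cerebellum and 11 in R6/2 cortex, against 7 and 5 in WT. Of these 18, 4 narrowed, 4 widened and 1 reversed, but none was called in the CHDI-treated animals. The share narrowed was close to that of all genes. Ugt8a, which makes myelin galactolipids, went from 0.31 to -0.18, the factor Myrf from 0.08 to -0.21 and the myelin protein Ermn from 0.21 to -0.20. Of 7 tested oligodendrocyte precursor genes 4 narrowed; Gpr17, a receptor of early differentiation, went from -1.40 to -0.68 as it rose in cerebellum from 12.4 to 21.3 CPM to 25.7 to 39.3 CPM. Among 15 endothelial and mural genes 1 was called widened, the transporter Abcb1a (-0.10 to -0.33).

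Lists for other tissues that a dissection can hold differed in their genotype calls, beside 22.8% narrowed and 9.53% widened over all genes. All 12 choroid plexus genes were higher in R6/2 cerebellum, with medians of 3.61 in R6/2 and 3.66 in WT, and none was called. Their summed level spanned 31.3 to 2918 CPM in R6/2 cerebellum and 24.8 to 2528 CPM in WT cerebellum. With that spread the absence of calls does not show an unchanged contrast. In the CHDI-treated animals the medians were 2.37 in R6/2 and 1.71 in WT. The 11 meningeal genes had none called, and among 6 erythrocyte genes only Bpgm, an enzyme of red cells and other tissues, was called widened, while 5 of the 6 fell in R6/2 cerebellum (28.2% of all genes did). Of 15 striatal genes 10 were higher in R6/2 cortex, 1 narrowed and 1 widened, and Drd1, the dopamine receptor of direct pathway neurons, was at 8.83 to 17.8 CPM in R6/2 cortex and 11.4 to 44.3 CPM in WT cortex. Of 8 hippocampal and amygdalar genes 4 narrowed and 1 widened, including Fibcd1 (-5.11 to -2.82) and Tdo2, tryptophan dioxygenase (2.96 to 1.83). Of 11 tested thalamic and brainstem genes 2 narrowed, 1 widened and 1 reversed, and 6 fell in R6/2 cerebellum. The widened one was Th, tyrosine hydroxylase, which was at 0.0565 to 0.434 CPM (median 0.221) in R6/2 cerebellum and 1.99 to 3.84 CPM (median 3.17) in WT cerebellum. No cerebellar library of R6/2 reached the lowest of WT, and its difference went from 0.57 to -2.83 (edgeR adjusted p of the genotype difference = 3e-07). The part of differing tissue content in the calls above was not tested.

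The comparison was repeated in 40 libraries of other animals, all of which had received CHDI-00340246, so the repeat differs in treatment as well as in animals. Over 17611 genes tested in both, 4039 were narrowed under vehicle, 3482 under CHDI-00340246 and 2712 in both, which is 67.1% of the first list and 77.9% of the second. For widened genes the numbers were 1691, 1784 and 1097 (64.9% and 61.5%), and for reversed genes 354, 376 and 231 (65.3% and 61.4%). Of the vehicle calls in these 3 classes, 1 was called with the opposite sign under CHDI-00340246. The genotype differences of the 17611 genes had a Pearson correlation of 0.78 between the sets, over genes, which are not independent replicates.

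No R6/2 gene passed the test of a region difference that differs between the sexes. That test of R6/2 females against R6/2 males called 0 genes by edgeR and 0 by DESeq2, with 459 and 477 genes at an unadjusted p under 0.05. The smallest p belonged to Lct, Gpr153 and Inpp4b. Gpr153, an orphan receptor gene, was at 4.46 to 12.7 CPM (median 8.48) in R6/2 cortex and 19.2 to 34.3 CPM in WT cortex. It widened from 0.18 to 1.93 over both sexes.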

How the data were processed

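Total RNA of the left cerebellum and left cortex was extracted with miRNeasy kits, checked on a Bioanalyzer and sequenced on an Illumina instrument, per the labels' protocols, with CASAVA 1.8.2 named in the submitters' processing notes. For the aligner, the counter and the genome build, the entry is: not given in the sources used here. Deposited by the authors were a table of estimated counts, which need not be whole (67.2% of the values above 0 were whole), and a table of FPKM values, both for 160 libraries. Counts were rounded to whole numbers before testing. Of the deposited FPKM columns 13 of 160 were matched best by the count column of their own header and 160 by a column of their own group, so FPKM was used by group only.

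The main test was edgeR 4.0.16 quasi-likelihood (R 4.3.3) on the 40 vehicle libraries, with 8 means for region, genotype and sex, TMM factors (0.92 to 1.09), the filterByExpr filter and Benjamini-Hochberg adjustment over all 17760 genes tested at 0.05. It held no term for the animal, so its SE and adjusted p ignore that 2 libraries come from each animal. The contrasts between genotypes within 1 region were added after the data were seen. SE is the fold change divided by the root of F. DESeq2 1.42.0 and limma 3.58.1 on log2(FPKM + 1) were alternatives, with other scalings, no filter, R6/2 libraries alone, sex as an additive term, library run, both replicate blocks, the CHDI-treated animals and each animal left out. Specimen numbers that differ by 40 between regions gave 1 animal's 2 libraries: all 10 cerebellar libraries of each genotype, and 10 R6/2 and 9 WT cortical ones, correlated best with their own number, at 0.27 to 0.50 in R6/2 and 0.17 to 0.42 in WT.

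The genes and lists were chosen with earlier results of these data known. Named genes are the 6 largest differences in each direction with at least 10 CPM, the 6 largest in each genotype class with at least 5 CPM, up to 4 largest and 3 smallest-p members per list, fixed regional markers and the 3 smallest p for sex. Itpr1, Car8, Irx2, Otx1, Pou4f1, Arc, Penk, Camkk1, Gad1, Dlx2 and Neurod6, where outside this rule, were chosen after their values were seen. Gene coordinates are from GENCODE M21 (GRCm38). Members that were not tested, such as Pax5, Lmx1b and Atoh1, are not in the counts. Results for some further genes are not reported here.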

Additional observations from a re-analysis of the deposited data

Results flagged for a closer look

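Region differences of 92 named genes and 2 list medians were screened over the 10 R6/2 animals for 1 animal standing far from the other 9, which chance gives in about 1 in 20 groups, and 7 of 94 stood out. Gabra6 was 13.06 (log2) in 1 animal against 10.73 to 11.56 in the others, Rasal1 was -5.85 against -5.19 to -4.76, and Camk2a was -5.82 against -5.59 to -5.38, all in the animal of cortical replicate F3. Homer3 was 2.91 against 3.38 to 3.87, Pou4f1 was -0.88 against -2.36 to -1.61, and Gad1 was 0.01 against 0.45 to 0.84, all in the animal of cortical replicate M5. Nptx2 was -5.40 against -3.32 to -2.55 in the animal of cortical replicate M3.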

How the results depend on the processing

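Counts of called genes stayed within 1.5 times the reported count under every alternative run. With 1 animal left out they ranged from 6558 to 6788 (higher in R6/2 cerebellum), 6468 to 6853 (higher in R6/2 cortex), 3760 to 4040 (narrowed), 1540 to 1722 (widened) and 325 to 362 (reversed). The replicate block by specimen number, which pairs the 2 regions of an animal, gave 6822 and 6948 region calls, 4341 narrowed and 1804 widened genes, and of 92 named genotype differences 3 lost their call. A block by title number, whose pairs mostly join different animals by the specimen numbers and correlated at -0.14 to 0.38 in R6/2, gave 6563 and 6682 region calls.

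Counts of genes past 4-fold depend on the scale. Those higher in R6/2 cerebellum numbered 818 with no count filter and 184 on log2(FPKM + 1), and those higher in cortex 258 on log2(FPKM + 1). The share of region genes past 4-fold in R6/2 was 31.7% (cerebellar) and 26.3% (cortical) on log2(FPKM + 1), 59.5% and 68.6% with 8-fold in place of 4-fold, 77.5% (cortical) with 2-fold, and 88.6% and 93.3% for genes chosen in CHDI-treated R6/2 animals. Among named genes, genotype differences turned over on log2(FPKM + 1) for Fat2 (-0.13), Cbln3 (-0.84), Pcp2 (-1.13), Cnpy1 (-0.58), Irx2 (0.06) and Cplx3 (0.82), and in the CHDI-treated animals for Cbln3 (-0.60), Cnpy1 (-0.76) and Crym (0.10; -3.36 to 0.78 with 1 animal left out). The R6/2 region difference turned over for Gng13 on log2(FPKM + 1) (-0.40) and for Otof in the CHDI-treated animals (0.11). The cause was not tested. The added pseudocount compresses genes at trace level in 1 region, where a few counts per library set the depth limit.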
